A study of Mus musculus with 2 samples.

Results

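The genes described are 10 targets of the transcription factor p53 that act in growth arrest, feedback on p53 and stress signalling: Cdkn1a, Gadd45a, Btg2, Plk2, Mdm2, Ccng1, Trp53inp1, Zmat3, Phlda3 and Gdf15. They were read from every probe set to which the platform annotation gave 1 of these symbols alone. This found 17 of the 45101 probe sets on the array, for 9 of the 10 genes. No probe set was named for Gdf15, a secreted stress cytokine, which is not analysed here. The 9 genes stand among 18194 genes named on the array.

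Kidneys of male C57BL/6 mice were taken 24 h after both kidneys had gone through 30 min of warm ischemia and then reperfusion, which causes acute kidney injury (AKI). The WT AKI group was 1 pool of 180 mg of frozen kidney from 3 wild-type mice, whose age is given as 8 weeks. The EST KO AKI group was 1 pool of 124 mg from 6 mice with the genotype label EST KO, EST being estrogen sulfotransferase, which inactivates estrogens by sulfation and is encoded by Sult1e1. The labels give neither the age of the EST KO mice nor which part of Sult1e1 is disrupted. Each pool was hybridised to 1 array, so the spread between mice is unknown, genotypes cannot be tested against each other, and precision is limited by having 2 arrays. Both pools were injured, so no value compares injured with uninjured kidney. Whole tissue was read, so more cells that express a gene and more RNA of it per cell cannot be told apart.

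In unstressed cells p53 is kept low because Mdm2, itself a p53 target, marks it for degradation. DNA damage and other stresses free p53, which then switches on genes that hold the cell cycle, repair DNA, restore Mdm2 or start cell death. In the kidney, Cdkn1a is known to be induced in tubule cells after ischemia.

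Values are the deposited linear intensities. A value was called above background when it passed the 95th percentile of 129 probe sets of gene families mostly silent in kidney, such as olfactory receptors, which was 676.1 on the WT array and 638.3 on the EST KO array. The targeted gene, Sult1e1, had 1 probe set, with values of 472.7 (WT) and 17.2 (EST KO), both below background, so it does not check the genotype label. The labels also give liver in 1 field for the EST KO pool. Alb, serum albumin, lay below background in both pools (487.9 and 522.3), as did 3 other hepatocyte markers, while Ttr, which is abundant in liver, read 1716 and 11957, and Cps1, Apob and Cyp3a11 lay above background in at least 1 pool. The proximal tubule transporter Slc34a1 read 16871 and 28347. Kidney was taken as the tissue of both pools.

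Among the 10 described genes, Trp53inp1 and Ccng1 stood highest in the EST KO pool relative to WT, followed by Cdkn1a, with small differences upward for Gadd45a, Mdm2 and Btg2 and a small one downward for Phlda3. Of the 10 genes, 8 were measured, that is, above background in at least 1 pool, and 7 lay above it in both. Of these 7, 6 were higher and 1 lower in the EST KO pool, where 44.8% of the 6115 genes above background in both pools were higher. Trp53inp1, Ccng1 and Cdkn1a were at least 1.5-fold higher, a size reached upward by 8.5% of those genes, and only Trp53inp1 was at least 2-fold higher, a size reached by 3.03%. Cdkn1a came under 1.5-fold in 5 of 8 other ways of processing (log2 0.29 to 0.56), and Trp53inp1 under 2-fold with the mean of its probe sets (log2 0.88). Over all 7480 measured genes the shares were 43.6% higher and 54.6% lower at any size, and, upward, 8.46% for 1.5-fold and 3.02% for 2-fold. Log2 ratios are EST KO minus WT. Their median over the 7 genes was 0.41, against -0.06 over all measured genes.

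By probe set, 13 of the 17 lay above background in both pools, and 12 of these read higher in the EST KO pool, where 46.1% of all 9586 such probe sets did. The exception was the single probe set of Phlda3. The 12 belong to the 6 genes already counted as higher, some sharing a source transcript, so they do not add to that count. The error that 1 array per genotype lets one measure is that between probe sets of 1 gene. Over 1663 genes that had a pair of such probe sets, the log2 ratios of the pair differed with an SD of 0.39, the median difference was 1.16-fold and the 90th percentile 1.54-fold. For 70.7% of these genes the pair went the same way. The SD is that of a difference between 2 ratios read on the same arrays. It holds no error between mice, pools or arrays, so a ratio that passes it is not thereby a genotype difference.

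**Figure D1:**
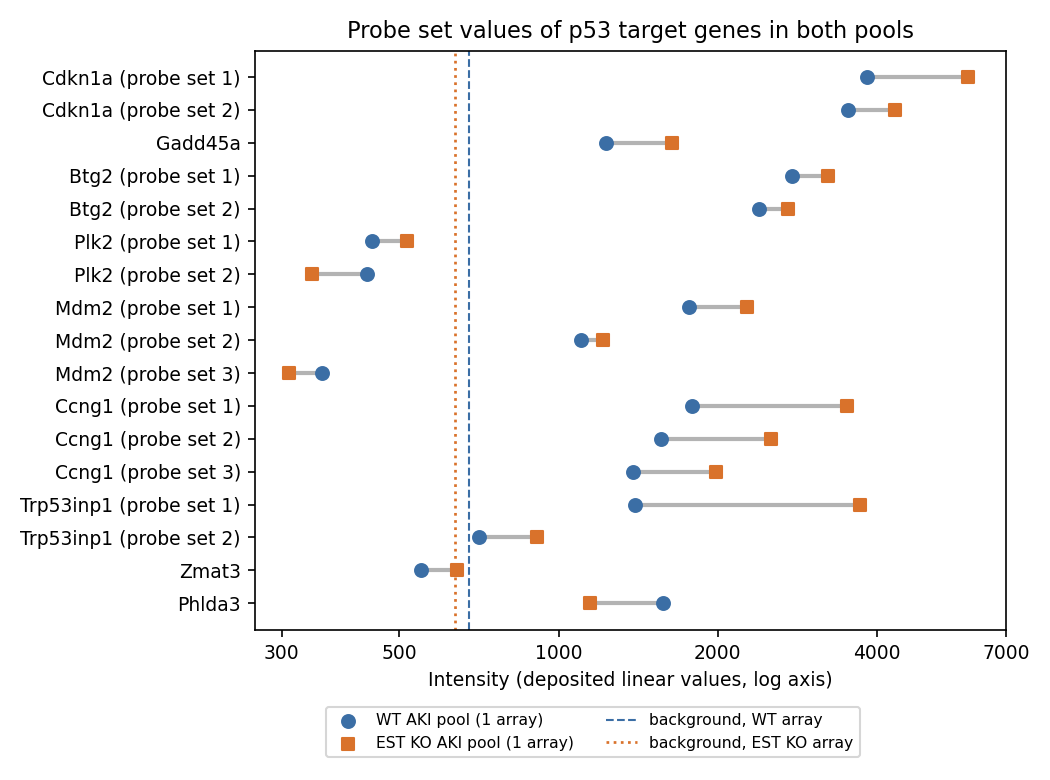
Deposited intensity (log axis) of each of the 17 probe sets in the WT AKI pool (circles) and the EST KO AKI pool (squares), with 1 array each and the background of each array as vertical lines. The EST KO square lies to the right for every probe set above background in both pools except that of Phlda3, and the Plk2 probe sets lie left of both lines.

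Of the described genes that act in growth arrest, Cdkn1a, Gadd45a and Btg2 read higher in the EST KO pool and Plk2 had no order. Cdkn1a encodes p21, which inhibits cyclin-dependent kinases. Its brighter probe set (1421679_a_at) read 3826 (WT) and 5948 (EST KO), 1.55-fold higher (log2 0.64). The other (1424638_at) read 3531 and 4324, 1.22-fold higher (log2 0.29). Both went the same way, and their difference of 0.34 on the log2 scale is within the SD between probe sets. The brighter one carries the suffix that marks a probe set able to read several transcripts of a gene. Among 7346 measured genes with an order between pools, 556 had a higher ratio than Cdkn1a.

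Gadd45a, a stress-induced protein that binds p21 and the replication clamp, read 1232 and 1641 at its single probe set (1449519_at), 1.33-fold higher (log2 0.41). This ratio is barely above the SD between probe sets, and 1024 genes had a higher one. Btg2, an antiproliferative protein that recruits deadenylases to mRNA, read 2763 and 3232 at its brighter probe set (1448272_at), 1.17-fold higher, and 2388 and 2711 at the other (1416250_at), 1.14-fold higher. The log2 ratios, 0.23 and 0.18, lay within 0.04 of each other and under the SD between probe sets, and the annotation gives both the same source transcript. Plk2, a polo-like kinase that is also an early response gene, read 444.8 and 516.3 at 1 probe set and 435.0 and 342.4 at the other. All 4 values lay below background, so Plk2 has no order between the pools.

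Among the genes that feed back on p53 or act with it, Ccng1 and Trp53inp1 had higher ratios than any other of the described genes, and Mdm2 a lower one than Cdkn1a and Gadd45a. Mdm2, the ubiquitin ligase that limits p53, read 1763 and 2270 at its brightest probe set (1423605_a_at), 1.29-fold higher (log2 0.36), and 1101 and 1214 at another (1427718_a_at), 1.10-fold higher (log2 0.14). Its last probe set read 357.5 and 309.9, below background in both pools. The Mdm2 ratios above background lay within the SD between probe sets.

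Ccng1 encodes cyclin G1, which recruits protein phosphatase 2A to Mdm2. Its brightest probe set (1420827_a_at) read 1786 (WT) and 3512 (EST KO), 1.97-fold higher (log2 0.98). The others read 1559 and 2523 (1450017_at, 1.62-fold, log2 0.69) and 1382 and 1980 (1450016_at, 1.43-fold, log2 0.52). All 3 probe sets of Ccng1 lay above background in both pools, went the same way and passed the SD between probe sets, although the annotation gives all 3 the same source transcript. Only 238 of the 7346 genes had a higher ratio.

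Trp53inp1 encodes a p53-induced nuclear protein that acts in cell death and autophagy. It read 1398 and 3706 at 1 probe set (1416926_at), 2.65-fold higher (log2 1.41), the highest ratio of the 10 genes, which 89 measured genes exceeded. The other probe set (1416927_at) read 708.4 and 910.3, 1.29-fold higher (log2 0.36), with the WT value 1.05 times background. The probe sets agreed in direction and differed in size by 1.04 on the log2 scale, a gap over 1 that was seen for 2.35% of the 1663 genes with a pair of probe sets. The annotation gives both probe sets of Trp53inp1 the same source transcript. With the mean of both, the log2 ratio was 0.88.

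Zmat3, an RNA-binding zinc finger protein, read 548.7 and 643.7 at its single probe set (1449353_at). Only the EST KO value passed background, and it lay under that of the WT array, so Zmat3 has no order. Phlda3, whose pleckstrin homology domain competes with the kinase Akt for membrane lipids, went the other way. Its single probe set (1449002_at) read 1579 (WT) and 1148 (EST KO), 1.38-fold lower (log2 -0.46), and 911 of the 7346 genes had a lower ratio. In size this ratio passed the SD between probe sets and the ratios of Gadd45a, Mdm2 and Btg2.

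**Figure D2:**
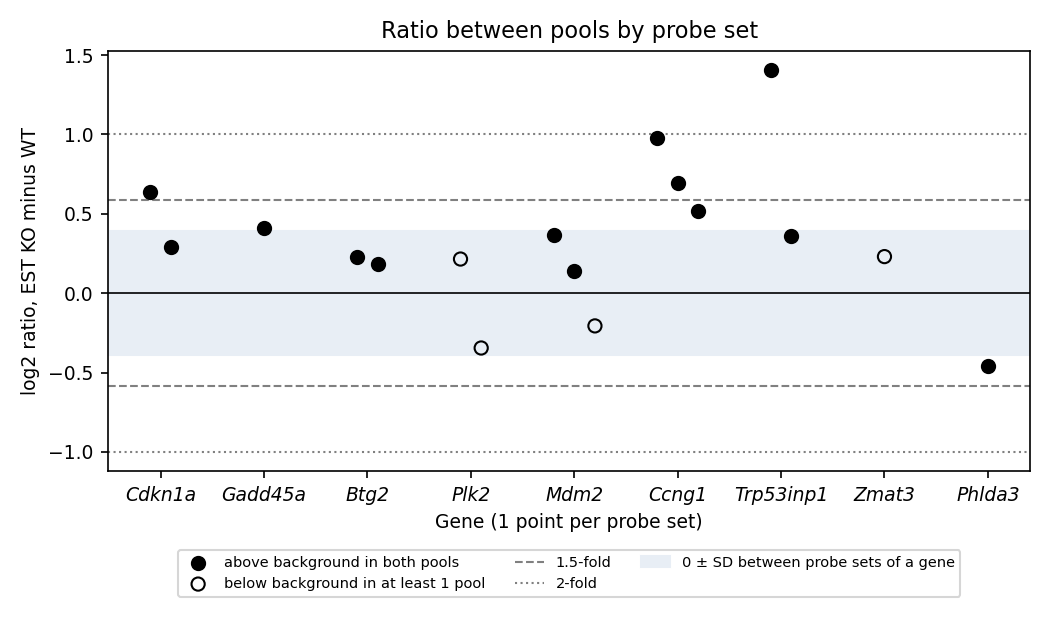
The log2 ratio (EST KO minus WT) of each probe set by gene, filled where both pools were above background, with lines at 1.5-fold and 2-fold and a band of 0 ± 0.39, the SD between probe sets of a gene. The band is not an error of the difference between genotypes. All 3 points of Ccng1 lie above the band, the points of Trp53inp1 lie apart at 1.41 and 0.36, and Phlda3 lies below 0 at -0.46.

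**Figure D3:**
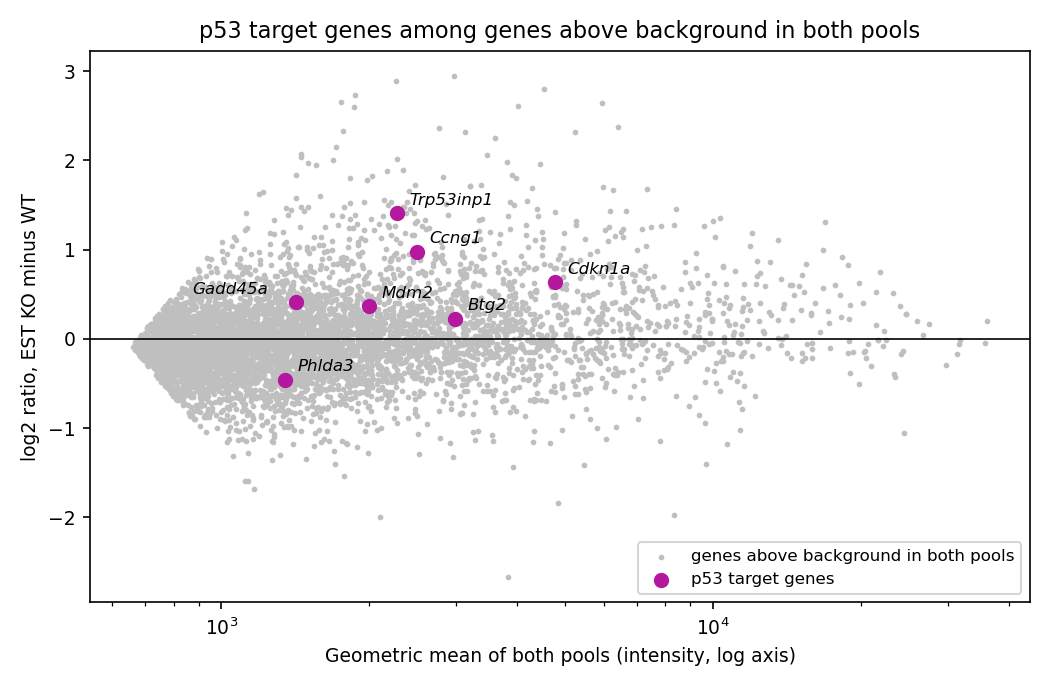
The log2 ratio (EST KO minus WT) against the geometric mean intensity of both pools (log axis) for 6115 genes above background in both, with the 7 p53 targets marked. Trp53inp1 (1.41) and Ccng1 (0.98) lie in the upper part of the cloud, Btg2 (0.23) and Mdm2 (0.36) inside it, and Phlda3 (-0.46) in its lower part.

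Promoter sequences are shown for the genes whose start site window held a match to the p53 decamer, the half-site of purines, C, a pair of A or T, G and pyrimidines that p53 binds. RefSeq windows of 300 bases (250 before and 50 after a transcript start, GRCm38.p6) were at hand for 8 of the 10 genes, as 10 windows; none was at hand for Trp53inp1 and Zmat3. An exact decamer, which reads as the same pattern on both strands, was found in 4 of the 10 windows and in 8.36% of all 32851 windows. Capitals mark the decamers, and each sequence runs 5′ to 3′ on the strand of its gene. The windows are Cdkn1a at chr17:29090729-29091028 (plus strand, the upstream of its 2 starts), Ccng1 at chr11:40755237-40755536 (minus strand), Gadd45a at chr6:67037358-67037657 (minus strand) and Mdm2 at chr10:117710709-117711008 (minus strand).
Cdkn1a: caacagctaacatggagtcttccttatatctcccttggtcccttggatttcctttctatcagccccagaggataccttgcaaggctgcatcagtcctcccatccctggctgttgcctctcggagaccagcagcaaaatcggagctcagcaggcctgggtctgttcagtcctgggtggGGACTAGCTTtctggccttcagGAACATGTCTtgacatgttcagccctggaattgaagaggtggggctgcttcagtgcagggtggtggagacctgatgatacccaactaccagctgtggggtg
Ccng1: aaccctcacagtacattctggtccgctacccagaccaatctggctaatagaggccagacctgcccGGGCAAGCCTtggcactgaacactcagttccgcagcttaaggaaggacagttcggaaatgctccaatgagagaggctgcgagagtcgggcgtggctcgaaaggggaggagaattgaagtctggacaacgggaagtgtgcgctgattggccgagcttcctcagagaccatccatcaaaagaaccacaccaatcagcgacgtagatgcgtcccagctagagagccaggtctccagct
Gadd45a: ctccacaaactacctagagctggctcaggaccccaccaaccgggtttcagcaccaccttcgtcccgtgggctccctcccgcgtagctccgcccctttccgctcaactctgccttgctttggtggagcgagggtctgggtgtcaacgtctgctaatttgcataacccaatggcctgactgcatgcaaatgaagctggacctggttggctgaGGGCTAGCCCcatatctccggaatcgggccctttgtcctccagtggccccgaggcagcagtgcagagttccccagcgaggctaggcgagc
Mdm2: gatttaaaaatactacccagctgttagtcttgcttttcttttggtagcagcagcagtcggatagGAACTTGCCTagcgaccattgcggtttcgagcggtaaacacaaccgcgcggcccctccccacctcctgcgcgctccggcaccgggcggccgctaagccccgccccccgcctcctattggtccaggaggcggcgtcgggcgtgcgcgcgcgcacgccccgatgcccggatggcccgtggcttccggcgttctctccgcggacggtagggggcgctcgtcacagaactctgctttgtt

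A complete p53 site holds a pair of decamers with a spacer of 0 to 13 bases. With up to 2 mismatches in all and the C and G of each core kept, such a site was found in 3 of the 10 windows and in 4.09% of all windows. Each of the 3 windows held 2 such matches, which share a decamer. For Cdkn1a this was the window of the upstream start, and the window of its other start held no decamer and no such site. In Cdkn1a the match with no mismatch was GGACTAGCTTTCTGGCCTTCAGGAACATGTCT, with a spacer of 12 bases, starting 73 bases before the transcript start, and the other was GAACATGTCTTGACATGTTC, with no spacer and 1 mismatch, starting 51 bases before. In Ccng1 the match with fewer mismatches was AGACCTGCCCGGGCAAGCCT, with no spacer and 1 mismatch, starting 195 bases before. In Gadd45a both matches had 2 mismatches, with spacers of 6 and 11 bases, starting 56 and 61 bases before. Ccng1, Cdkn1a and Gadd45a had log2 ratios of 0.98, 0.64 and 0.41, and Mdm2, with a lone decamer in its window, had 0.36. Trp53inp1, which had the highest ratio (1.41), had no window. Sites outside the windows of 300 bases were not searched, and a relation between sites and ratios was not tested.

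Other motifs were searched on both strands. The GC box GGGCGG was found in 6 of the 10 windows and in 35.7% of all, and the cAMP response element TGACGTCA in 2, those of Btg2 and Plk2, and in 1.79% of all. Neither the TATA box TATAAA (13.6% of all windows) nor the AP-1 site TGANTCA (7.81%) was found in any of the 10. A match is a description of the letters in these windows, and p53 binding was not measured.

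Regulators of p53 went both ways. No probe set was named for Trp53, the gene of p53 itself, which is not analysed here. Mdm4, a relative of Mdm2 that blocks p53, read 557.9 and 407.6 at its brightest probe set, and all 4 of its probe sets lay below background in both pools. Of 20 regulators listed, 10 were measured, 4 higher and 6 lower in the EST KO pool, with a median log2 ratio of -0.14. Past 1.5-fold there was 1 gene in each direction, where 8.46% of all measured genes were that far higher and 7.43% that far lower. At any size 43.6% of all measured genes were higher and 54.6% lower. Trp53bp2, a p53-binding protein that favours cell death genes, read 857.0 and 1413 (1.65-fold higher), and both of its probe sets went that way. Trp53bp1, a DNA break repair protein, read 1271 and 643.8 (1.97-fold lower), the latter barely above background, with its other 5 probe sets below background in both pools. Rchy1, a ubiquitin ligase for p53, was 1.34-fold lower (2634 and 1972), and Hipk2, a kinase that activates p53, was 1.31-fold lower (3326 and 2540), with all 5 of its probe sets above background lower.

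Other p53 targets of arrest, repair and metabolism were split much as all measured genes were, of which 43.6% were higher and 54.6% lower. Of 26 listed, 13 were measured, 5 higher and 8 lower, with a median log2 ratio of -0.14. Those at least 2-fold higher were Dcxr, a carbonyl and xylulose reductase of kidney tubule (1265 and 3208, 2.54-fold), and Slc19a2, a thiamine transporter (1081 and 2192, 2.03-fold). Of all measured genes 3.02% were that far higher. Abhd4, a lipid hydrolase, was 1.63-fold lower (5840 and 3590) and Cd82, a membrane tetraspanin, 1.42-fold lower (5176 and 3637), with the other probe set of Cd82 opposed. The DNA repair gene Xpc was at least 1.28-fold lower (815.3 and 574, the latter below background). The DNA repair genes Ddb2, Polk and Ercc5, the ribonucleotide reductase subunit Rrm2b, and Sesn1 all lay below background in both pools.

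Among cell death targets of p53 more were higher than lower, in part through genes below background in the WT pool. Of 14 listed, 8 were measured, 6 higher and 2 lower, with a median log2 ratio of 0.27, where 43.6% of all measured genes were higher. A size of 1.5-fold upward was reached by 8.46% of all measured genes and here by 1 gene. This was Pmaip1, the BH3-only protein Noxa, which read 297.4 (WT, below background) and 1036 (EST KO), at least 1.53-fold higher. Ei24, an endoplasmic reticulum protein, was 1.38-fold higher (2230 and 3072), and Aen, an exonuclease of apoptosis, 1.31-fold higher (1704 and 2226). Siva1, a death receptor adaptor, was 1.22-fold lower (1144 and 935.8). Bbc3, the BH3-only protein Puma, was at least 1.02-fold higher (458.6 and 686.5). Like Pmaip1 and Bbc3, Bid (492.2 and 818.7, at least 1.21-fold higher) was below background in the WT pool. Genes measured through the EST KO pool alone could not come out lower. Among those above background in both pools, Perp (2045 and 2454), Ei24 and Aen were higher, and Siva1 and Trp53i11 (1407.5 and 1242.4) lower. Fas and the TRAIL receptor Tnfrsf10b lay below background in both pools.

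Relatives of the described genes were mostly counted as higher, in part through genes below background in the WT pool. Of 17 listed, 11 were measured, 9 higher and 2 lower, with a median log2 ratio of 0.25, where 43.6% of all measured genes were higher. Tob1, an antiproliferative relative of Btg2, was 2.10-fold higher (1591 and 3348). Gadd45g (523.8 and 925.8, at least 1.37-fold) and Plk3 (409.1 and 883.0, at least 1.31-fold), which is also in the arrest list, were below background in the WT pool, so these bounds do not show whether they passed 1.5-fold. Ccng2, the closest relative of Ccng1, went the other way and was 1.31-fold lower (1192 and 911.3), with both of its probe sets lower. Like Gadd45g and Plk3, Gadd45b (479.4 and 834) and Phlda2 (529.9 and 689) were measured through the EST KO pool alone. Genes measured in this way could not come out lower. Among relatives above background in both pools, Tob1, Tob2, Phlda1, Trp53inp2 and Cdkn1b were higher, and Btg1 and Ccng2 lower.

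Cell cycle genes were largely below background in both pools. For comparison, 43.6% of all measured genes were higher and 54.6% lower. Of 20 G2 and M phase genes listed, 3 were measured and all 3 were lower, with a median log2 ratio of -0.41. Foxm1, a transcription factor of mitotic genes, was 1.73-fold lower (3854 and 2232), Stmn1, a tubulin-binding protein, 1.33-fold lower (2821 and 2117), and Ccna2, cyclin A2, 1.01-fold lower (767.7 and 761.7). The other 3 probe sets of Foxm1 lay below background in both pools, as did Mki67, Top2a and Cdk1. Of 22 G1 and S phase genes, 10 were measured, 4 higher and 6 lower, with a median of -0.14. Ccnd1, cyclin D1, was 1.91-fold higher (2237 and 4279), and Cdk6, its kinase partner, 1.45-fold higher (930.8 and 1353). All 3 probe sets of Ccnd1 were higher but differed in size (log2 0.94 to 4.02), the largest from a WT value of 47.8, below background. Cdk2, a kinase that p21 inhibits, was 1.52-fold lower (1273 and 834.9), and Ccnd2, cyclin D2, 1.36-fold lower (1563 and 1151). Of 7 INK4 inhibitors and retinoblastoma family genes, Cdkn2c (1116 and 1026) and Rb1 (676.7 and 659.6) were measured, 1.09-fold and 1.03-fold lower, and the senescence genes Cdkn2a and Cdkn2b lay below background in both pools.

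**Figure D4:**
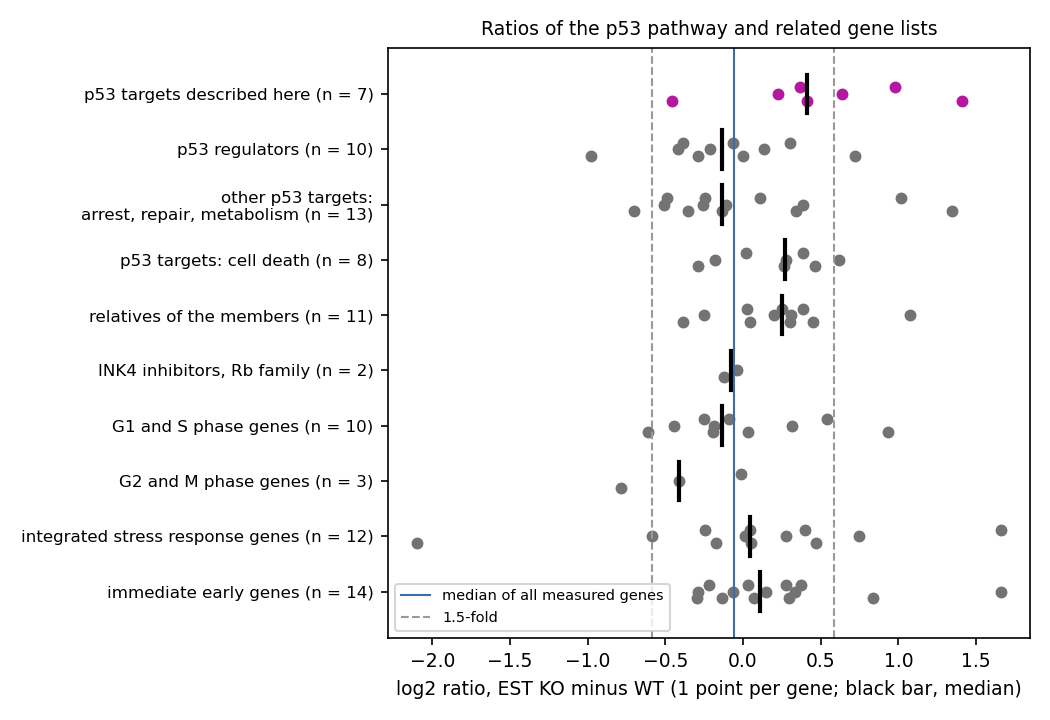
The log2 ratio (EST KO minus WT) of each measured gene with an order between pools, by list, with the list median as a black bar and the median of all measured genes as a vertical line. The medians run from 0.41 for the p53 targets described here to -0.41 for the 3 measured G2 and M phase genes.

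Several p53 targets also respond to other stress pathways, so those were read in the same way, beside 43.6% of all measured genes higher and 54.6% lower. Of 12 integrated stress response genes, all 12 were measured, 8 higher and 4 lower, with a median log2 ratio of 0.05. Atf3, a stress-induced transcription factor, was at least 3.15-fold higher (260.2 and 2133), Psat1, an enzyme of serine synthesis, 1.68-fold higher (1301 and 2179), Nupr1, a chromatin protein of the stress response, at least 4.28-fold lower (2730 and 252.5), and Phgdh, the first enzyme of serine synthesis, lower by a log2 ratio of -0.59 (3878 and 2580), with its other probe set above background opposed. Of 15 immediate early genes, the class to which Btg2 and Plk2 also belong, 14 were measured, 9 higher and 5 lower, with a median of 0.11. Besides Atf3, Klf6 was 1.79-fold higher (4607 and 8242) in all 5 of its probe sets, Fos 1.26-fold (845.6 and 1065) and Egr1 by a log2 ratio of 0.37 (3247 and 4206).

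Markers of kidney cell types differed between the pools beside these results. The shares over all measured genes were 43.6% higher and 54.6% lower. Counts are over measured markers, and sums, given as WT and EST KO, are over every marker of a list with a probe set, those below background included. All 11 proximal tubule markers read were higher in the EST KO pool (list sums of 55158 and 106253), and 7 of 8 measured injured tubule markers were lower (list sums of 103121 and 58651). The brightest of the former were Slc34a1 and Slc27a2 (11846 and 19424), and of the latter Lcn2 (35378 and 16994) and Clu (21764 and 16623). All 9 measured endothelial markers were lower (sums over the 11 listed of 12970 and 9631), as were 6 of 8 of fibroblasts and pericytes (over 10, 16997 and 11815), 5 of 6 of monocytes and macrophages (over 12, 15134 and 9889) and all 3 of neutrophils (over 9, 6296 and 4184). The brightest endothelial markers were Emcn (1764 and 1637) and Kdr (1943 and 1313), those of fibroblasts and pericytes Acta2 (3985 and 2810) and Dcn (2402 and 2890), those of monocytes and macrophages Cd14 (5159 and 2444) and Csf1r (2582 and 2194), and those of neutrophils S100a8 (2093 and 649.3) and S100a9 (1303 and 916.9). Loop, distal tubule and collecting duct markers summed to 44346 and 45655, with 6 of 8 higher, and were led by Umod (25568 and 22735) and Aqp2 (6236 and 3964). Of T, B and NK cell markers 3 were measured, 1 of them higher (sums over 9 of 4193 and 4407), led by Cd8a (1467 and 1333) and Ighm (972.3 and 1402). Of hepatocyte markers 4 were measured, 3 of them higher (sums over 8 of 4949 and 15040), led by Ttr (1716 and 11957) and Cps1 (730.7 and 811.7). Among defining markers, Cd3e, Cd4, Nkg7, Apoa1 and Ahsg lay below background in both pools, as did Ptprc and Mpo. The part of these markers in the ratios of the p53 targets was not tested.

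Ccng1 and Trp53inp1 were at least 1.5-fold higher under each of the 8 other ways of processing tried, with log2 ratios from 0.69 to 1.03 and from 0.88 to 1.46. Cdkn1a came under 1.5-fold with a pseudocount (0.56), quantile normalization (0.44), the intensity trend removed (0.52), the mean of its probe sets (0.46) and without its less specific probe set (0.29). Gadd45a ranged from 0.28 to 0.47, Mdm2 from 0.25 to 0.42, Btg2 from 0.08 to 0.28 and Phlda3 from -0.46 to -0.31, each with 1 sign throughout, although Mdm2 had no probe set above background left without the less specific ones.

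**Figure D5:**
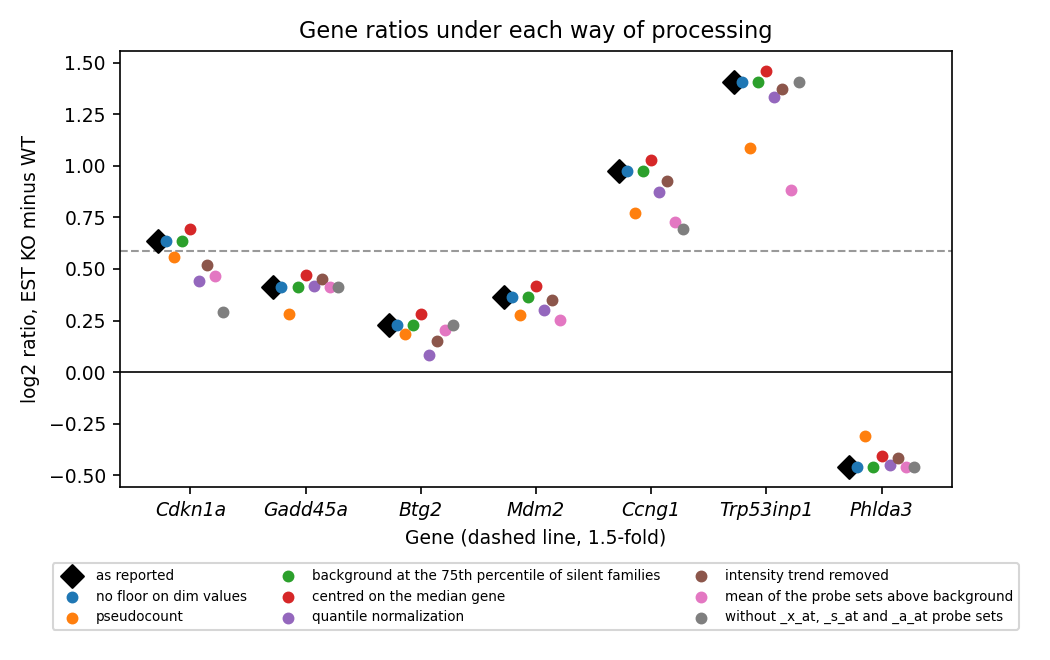
The log2 ratio (EST KO minus WT) of each gene with an order between pools, as reported (diamonds) and under 8 other ways of processing (circles), with a dashed line at 1.5-fold. Ccng1 and Trp53inp1 stay above the line, Cdkn1a lies on both sides of it, and no gene changes sign; Mdm2 has no value without its less specific probe sets.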

How the data were processed

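Values were the deposited intensities of the series' value table, linear, 1 per probe set and array; what summarised the probes, and which scanner software, is not given in the sources used here. From the values, each array's 2% trimmed mean was 500.0, and the medians were 261.8 (WT) and 242.4 (EST KO), within the limit of 10% set for using them as deposited. Probe sets with a single symbol in GEO's platform annotation (34958; 932 had several and 9211 none) were named, and 34754 were updated through the Entrez ID to RefSeq symbols (GRCm38.p6). Of several probe sets, the one with the highest mean stood for its gene. Values under background (24.0% and 24.2% of probe sets lay above) were raised to it before log2, and a fold against such a value is given as "at least". Genes that passed background in the EST KO pool alone, at a value under the WT background, have no order and stay out of medians. Named besides the described genes are Mdm4, up to 4 genes of each list with the largest absolute ratio and the 2 brightest of each marker list; others were chosen after their values were seen. The genes and lists were chosen with earlier results of these data known. Python 3.11.15, pandas 2.3.3 and numpy 2.4.6 were used. The code was checked for recovery of changes planted in bright genes of simulated data, which does not test the reported ratios.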

Additional observations from a re-analysis of the deposited data

How the results depend on the processing

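Alternatives were no floor on dim values, a pseudocount of 657.2, background at the 75th percentile of silent families, centring, quantile normalization, lowess trend removal, the mean of probe sets, and only probe sets without a suffix for shared transcripts. The described genes at least 2-fold higher numbered 2 after centring (Ccng1 was added) and 0 with the mean of probe sets. Over all genes, 257 of 7480 and 201 of 7492 were that far higher in these settings. Described genes higher at all numbered from 5 of 7 measured (suffix-free) to 8 of 9 (75th percentile). In these settings 2589 of 5941 and 4646 of 11258 of all genes were higher. Described genes at least 1.5-fold higher numbered 2 or 3, against 455 (pseudocount) to 887 (75th percentile) over all genes. The median of the described genes ran from 0.28 to 0.47. The median of G1 and S phase genes turned to 0.034 with the 75th percentile background and with suffix-free probe sets. Other medians that moved were G2 and M phase genes (-0.27, 75th percentile), immediate early genes (0.28, suffix-free), stress response genes (0.16 with no floor and with the 75th percentile, 0.28 suffix-free) and cell death targets (0.42, no floor). Over all genes, those at least 2-fold higher numbered 226 as reported and 133 with a pseudocount, and those at least 1.5-fold lower 556, 229 with a pseudocount and 1026 with the 75th percentile. The causes were not tested. No paired analysis was possible because each genotype was 1 pool on 1 array, and no replicate could be left out. Signal over background limits Plk2, Zmat3, Mdm4 and most cell cycle genes.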
